A study of Rattus norvegicus with 24 samples.

Results

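The diet by time interaction of kidney RNA was examined in rats fed a normal or a salt and fat diet, that is, how far the diet difference after 8 weeks departed from the diet difference after 2 weeks. It was computed for every probe set as salt and fat minus normal at 8 weeks, minus salt and fat minus normal at 2 weeks. All 24 of the 24 arrays of the study entered it. Of 10208 probe sets tested, 39 passed an adjusted p under 0.05, for 37 distinct gene symbols, and these 39 are the members described here. The animals were males of the SHR-SP strain, spontaneously hypertensive rats inbred for a tendency to stroke, and no normotensive strain was part of the comparison. From 11 weeks of age they ate either powdered chow with plain water (the normal diet) or chow with 24.5% fat together with 1% NaCl in the drinking water (the salt and fat diet). Neither agent was given alone in these groups, so any response belongs to both jointly. Each diet was given for 2 or 8 weeks to 6 animals, with 1 array per animal, and the 8-week animals were older as well as longer on the diet. Pulverised whole kidney was the source of the RNA, so that fewer cells of a type and less RNA per cell cannot be told apart. P-values measure the spread between animals within these groups.

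Salt loading of this strain is known to aggravate hypertension and to damage renal vessels and tubules. Injured tubule cells switch on secreted and membrane proteins such as Kim-1 (Havcr1) and lipocalin 2, while macrophages enter the interstitium and fibroblasts lay down collagen. Interferon and inflammatory signals raise the genes that load peptides on major histocompatibility complex (MHC) molecules. High salt intake also changes the work of the tubule, where NHE3 (Slc9a3) takes up sodium in the proximal part and water channels act in the collecting duct.

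The kidney label fitted the data: markers of proximal tubule (Slc34a1, signal 3505 to 6018 over the arrays), thick ascending limb (Umod, 4737 to 6782), collecting duct (Aqp2, 447 to 1782) and podocyte (Nphs1, 47.8 to 90.3) were all detected. Array medians differed little between the diets (exact permutation p = 0.970 at 2 weeks and 0.799 at 8 weeks). Since the signals are scaled per array, nothing is read from this. At 2 weeks 3 other measures differed between the diets. The level of bacterial and phage spike-in controls was 0.30 lower (log2) on the salt and fat arrays at 2 weeks (exact two-sided permutation p = 0.00216) and 0.23 higher at 8 weeks (exact p = 0.0476). The 3′ to 5′ ratio of the GAPDH control, a sign of RNA integrity, differed by 0.13 at 2 weeks (exact p = 0.0152) and by 0.01 at 8 weeks (exact p = 0.911). A fat index, the mean standardised level of the adipocyte genes Fabp4, Cfd and Car3, was 1.72 lower at 2 weeks (exact p = 0.00866) and 0.23 higher at 8 weeks (exact p = 0.662). The part of these measures in the results was not tested beyond the covariate fits given here. Normal-diet arrays 1 and 2 at 8 weeks stood apart in their weakest signals. Without them 41 probe sets were called, including 26 of the 39.

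**Figure D1:**
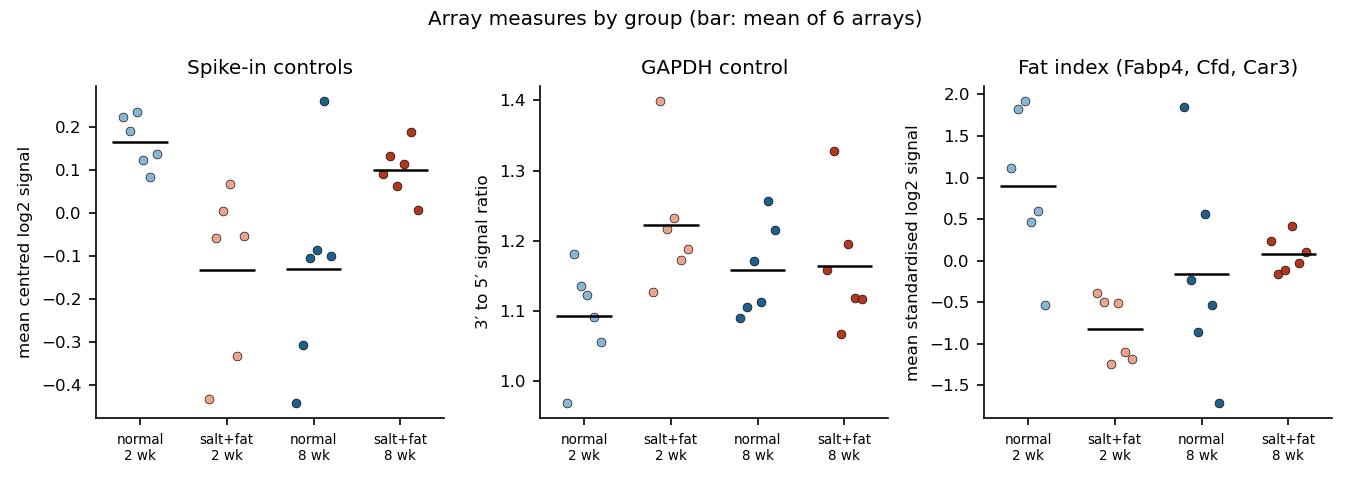
Measures of each array by group, with the spike-in level (log2, centred), the GAPDH 3′ to 5′ ratio and the fat index on the vertical axes, 1 point per array and a bar at the mean of 6. Spike-in levels were 0.30 lower on the salt and fat diet at 2 weeks and 0.23 higher at 8 weeks.

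Most of the called interactions ran upward, while over all probe sets tested 4808 interactions lay above 0 and 5400 below. Of the 39 probe sets called (0.382% of those tested), 35 had a more positive diet difference at 8 weeks than at 2 weeks (0.343%) and 4 a more negative one (0.0392%). An unadjusted p under 0.05 was reached by 1189 (11.6%), of which 644 were higher (6.31%) and 545 lower (5.34%). A response was said to reverse where the diet differences at the 2 times had opposite signs and each an unadjusted p under 0.05, and otherwise to grow or fade by the larger absolute difference. By this rule 17 members grew, all upward, 3 faded from lower toward no difference, and 19 reversed, 15 from lower to higher and 4 from higher to lower. Among the 1189 at an unadjusted p under 0.05 the balance was different, with 573 growing, 564 fading and 52 reversing. Where a reversal required an adjusted p under 0.05 at both times, 25 grew, 9 faded and 5 reversed, namely COX1, RT1-Da, Fgl2 and both probe sets of Ctsl.

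The levels of the members moved mainly on the salt and fat diet. The absolute difference between 8 and 2 weeks had a median of 0.69 (log2) in the salt and fat animals and 0.20 in the normal-diet animals, and was larger in the former for 34 of 39. Over all probe sets the medians were 0.11 and 0.09, and 5741 of 10208 were larger in the salt and fat animals. The exceptions among the members were Col1a1, Col3a1, Cidea, Thrsp and Nae1. On the normal diet their differences between 8 and 2 weeks were -0.79, -0.56, -0.90, -1.77 and 0.43, in that order. On the salt and fat diet they were 0.78, 0.35, 0.72, 1.41 and -0.37. Limma called 35 of the 39 between the times on the salt and fat diet (background 360 of 10208, 3.53%) and 0 on the normal diet (background 4, 0.0392%). These time differences share arrays with the interaction and are descriptive. The groups of 6 did not overlap between diets for 10 of 39 at 2 weeks (background 4.85%) and for 20 of 39 at 8 weeks (background 3.35%). Since the interaction was computed from the same arrays, nothing is read from these shares.

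Across all probe sets the diet differences at the 2 times, which share no array, had a Pearson correlation of 0.44 as a description across genes, and 65.0% had the same sign. The diet changed 892 probe sets at 2 weeks (8.74%) and 933 at 8 weeks (9.14%), of which 282 were called at both times, which is 31.6% of the 2-week calls and 30.2% of the 8-week calls. Of these 282, 277 kept their direction and 5 turned. Among the 464 probe sets higher at 2 weeks (4.55%), 91.8% had the same sign at 8 weeks and 3 were called in the interaction. Of the 428 lower at 2 weeks (4.19%), 81.3% kept the sign and 12 were called in the interaction. The 575 higher at 8 weeks (5.63%) held 28 of the members, and the 358 lower at 8 weeks (3.51%) held 2.

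**Figure D2:**
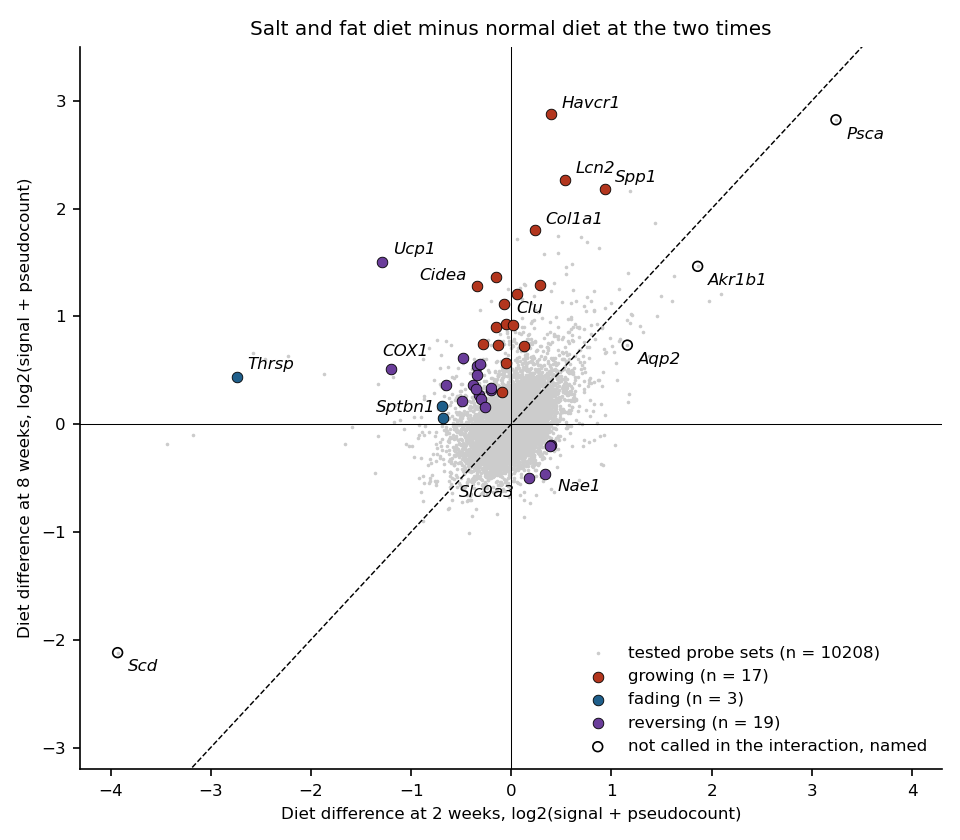
Diet difference (salt and fat minus normal, log2 of signal plus pseudocount) at 2 weeks on the horizontal axis and at 8 weeks on the vertical axis for 10208 probe sets, with the 39 members coloured by class, 4 other genes as open circles, and a dashed line where both are equal. The 17 growing members lie above the line, and Havcr1 is the highest of them at 2.88.

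The 2 largest growing interactions were those of the tubular injury genes Havcr1 and Lcn2. In what follows signals are given as lowest, median and highest of 6 animals, with the normal diet before the salt and fat diet. Havcr1, which encodes Kim-1, a membrane receptor of injured proximal tubule cells, had signals of 19.7, 33.5 and 94.7 against 28.0, 52.4 and 96.0 at 2 weeks. At 8 weeks the signals were 30.1, 52.1 and 68.0 against 177, 395 and 879. The groups overlapped at 2 weeks, and all 6 salt and fat animals lay above all 6 normal-diet animals at 8 weeks. The diet difference went from 0.40 ± 0.33 (SE, log2) to 2.88 ± 0.33, an interaction of 2.48 ± 0.47 (95% interval 1.51 to 3.45, limma adjusted p = 0.0155). Lcn2, a secreted protein that binds bacterial siderophores, had signals of 30.1, 44.1 and 54.5 against 45.8, 63.5 and 98 at 2 weeks and of 19.5, 38.0 and 62.2 against 134, 238 and 346 at 8 weeks. It followed the same course, with overlapping groups first and separate groups later (interaction 1.73 ± 0.32, adjusted p = 0.0113).

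Spp1, osteopontin, was the one of the 5 called injury genes whose groups were already separate at 2 weeks. At 2 weeks its signals were 790.5, 1083 and 1326 (normal) and 1771, 2055 and 2409.7 (salt and fat), then 888, 1044 and 1637 and 3102, 5432 and 7387 at 8 weeks. The diet difference of 0.93 ± 0.17 was called at 2 weeks (adjusted p = 0.00097) and became 2.19 ± 0.17 at 8 weeks (interaction 1.25 ± 0.24, adjusted p = 0.0165). Clu, clusterin, a secreted chaperone, had signals of 539, 599.7 and 689.8 against 539.8, 576 and 619 at 2 weeks and 575, 670.3 and 759.5 against 1014, 1469 and 2219.5 at 8 weeks. No separation was seen at 2 weeks, and every salt and fat animal was above every normal-diet animal at 8 weeks (diet difference -0.08 then 1.11, interaction 1.19 ± 0.19, adjusted p = 0.00361). Vim, vimentin, the intermediate filament of mesenchymal cells, had medians of 275 and 274 at 2 weeks and 230.2 and 427 at 8 weeks (interaction 0.99 ± 0.21, adjusted p = 0.0247, and 0.64 ± 0.22 with adjusted p = 0.298 given the fat index), and its call held in 17 of the 24 omissions of 1 array.

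**Figure D3:**
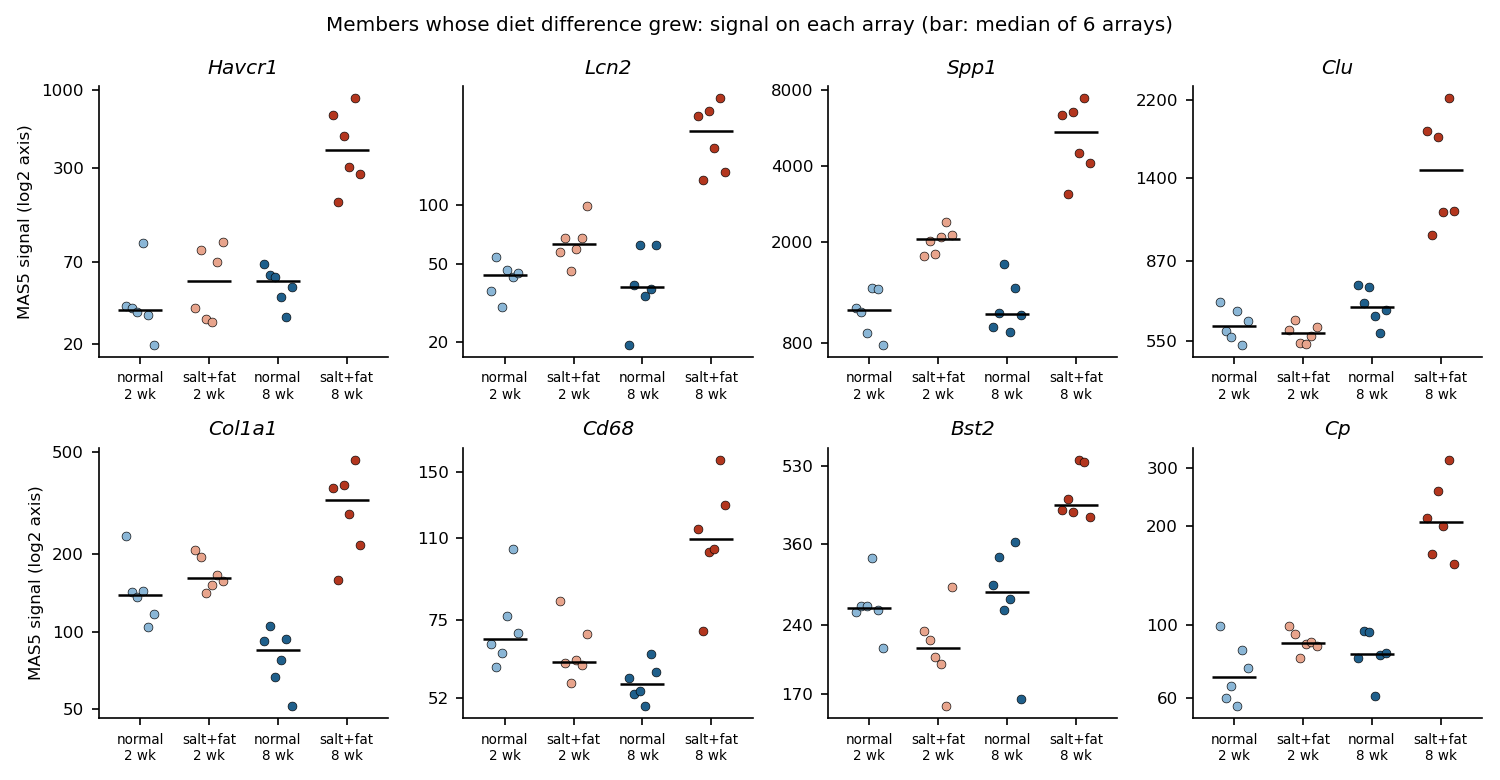
MAS5 signal (log2 axis) of 8 growing members on each array, in 4 groups of 6, with a bar at the group median. The salt and fat animals at 8 weeks lie above the normal-diet animals at 8 weeks in all 8 panels, and Spp1 is the one of the 8 whose diet groups are also separate at 2 weeks.

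The list of tubular injury genes as a whole had 28 genes tested, of which 5 were called in the interaction, all upward, and 16 more-positive differences reached an unadjusted p under 0.05. The interaction was above 0 for 27 of 28, with a median of 0.46, against -0.02 over all probe sets tested. Its median diet difference was 0.28 at 2 weeks and 0.89 at 8 weeks, where 10 and 22 of its genes were called higher. Timp1, an inhibitor of metalloproteinases (1.17, adjusted p = 0.0589), and Fga, a fibrinogen chain (1.26, adjusted p = 0.155), had large interactions that did not pass. Krt18, an epithelial keratin, was the one gene below 0, at -0.30. On the array-wise mean of the list, centred over all arrays, normal-diet animals at 8 weeks lay at -0.36 to -0.23 and salt and fat animals at 0.35 to 1.12, against -0.11 to 0.19 for salt and fat animals at 2 weeks.

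Fibrillar collagens grew as well. Col1a1, a chain of type I collagen, had signals of 105, 139 and 236 against 141, 162 and 207 at 2 weeks and 51.3, 84.6 and 105 against 159, 325 and 467 at 8 weeks. Its diet groups overlapped at 2 weeks and were separate at 8 weeks. Between 2 and 8 weeks the difference was -0.79 (log2) on the normal diet and 0.78 on the salt and fat diet (adjusted p = 0.189 and 0.0257). The interaction was 1.57 ± 0.28, adjusted p = 0.011, and a further probe set of Col1a1 had 0.62 (adjusted p = 0.158). Col3a1, the chain of type III collagen, had medians of 468 and 476 at 2 weeks and 312 and 584 at 8 weeks (interaction 0.91 ± 0.19, adjusted p = 0.0247), and its normal-diet difference between 8 and 2 weeks was -0.56 (adjusted p = 0.169). The call of Col3a1 was lost in 4 of the 24 omissions of 1 array: normal-diet array 3 or salt and fat array 3 at 2 weeks, normal-diet array 6 or salt and fat array 3 at 8 weeks (adjusted p up to 0.0608).

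Of 39 matrix genes tested, these 2 were called, and 16 differences upward and 1 downward had an unadjusted p under 0.05. The interaction was above 0 for 32 of 39 (median 0.28). Adjusted for the GAPDH ratio the median was 0.18 with 6 upward, and adjusted for the fat index 0.20 with 9 upward. Pcolce, an enhancer of procollagen processing, had diet differences of 0.05 at 2 weeks and 1.17 at 8 weeks, and Emilin1, an elastic fibre glycoprotein, of 0.70 at 2 weeks and 1.73 at 8 weeks, without passing in the interaction (adjusted p = 0.314 and 0.28). Fn1, fibronectin, was higher at both times (0.75 ± 0.13 and 1.05 ± 0.13, adjusted p = 0.000689 and 6.74e-06) with an interaction of 0.30 ± 0.19, adjusted p = 0.561. Its 95% interval was -0.08 to 0.68. The diet groups of Fn1 did not overlap at either time.

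Genes of macrophages formed a further growing group. Cd68, an endosomal glycoprotein of macrophages, had signals of 60.2, 68.7 and 104 against 55.7, 61.7 and 81.9 at 2 weeks and 50.1, 55.5 and 63.9 against 71.2, 109.7 and 159 at 8 weeks. The groups overlapped at 2 weeks and were separate at 8 weeks (diet difference -0.15 then 0.90, interaction 1.05 ± 0.20, adjusted p = 0.0155). Gpnmb, a glycoprotein of lipid-laden and tissue-remodelling macrophages, had medians of 62.0 and 69.7 at 2 weeks and 61.6 and 151 at 8 weeks (interaction 1.15 ± 0.24, adjusted p = 0.0219, and adjusted p = 0.0526 without salt and fat array 3 at 8 weeks). C1qa, a chain of the complement starter C1q that macrophages make, had medians of 178 and 166 at 2 weeks and 163 and 246 at 8 weeks (interaction 0.62 ± 0.12, adjusted p = 0.0165).

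Lyz2, lysozyme of macrophages, was classed as reversing, with a diet difference of -0.20 ± 0.08 at 2 weeks (adjusted p = 0.104) and 0.32 ± 0.08 at 8 weeks (adjusted p = 0.00966). Its interaction was 0.52 ± 0.11, adjusted p = 0.0241, and its call was lost without normal-diet array 2 or salt and fat array 3 at 8 weeks (adjusted p up to 0.0541). Over the list, 21 macrophage and myeloid genes were tested, 4 were called upward and 14 reached an unadjusted p under 0.05, all upward. The interaction was above 0 for 20 of 21 (median 0.39), and Aif1 was the exception at -0.11. The summed signal of the listed genes, in which bright genes weigh most, was 8002 to 8528 on the normal and 6675 to 7709 on the salt and fat diet at 2 weeks, so that the salt and fat animals were all lower in this sum. At 8 weeks the sum was 7364 to 8349 and 7957 to 9947. On the array-wise mean of the list (log2, centred), where genes weigh equally, the diets overlapped at 2 weeks (-0.18 to 0.03 and -0.25 to -0.11). The median diet difference was then -0.06, with 2 genes called lower and 0 higher. Ptprc, Itgam, Ccr2 and Fcgr2b, which also mark leukocytes, lay below the filter. Of 4 lymphocyte genes tested, 0 were called by limma and 1, Cd4, reached an unadjusted p under 0.05 (0.37, adjusted p = 0.328).

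The complement list had 13 genes tested, with C1qa called, 7 upward at an unadjusted p under 0.05 and a median interaction of 0.43. With adjustment for the fat index these were 2 and 0.28. C3, the central complement component, had diet differences of -0.12 at 2 weeks and 0.77 at 8 weeks (adjusted p of the interaction 0.0514). A growing probe set that the platform annotation assigns to more than 1 gene, and which is left unnamed, had medians of 299 and 241 at 2 weeks and 218 and 661 at 8 weeks (interaction 1.52 ± 0.30, adjusted p = 0.0165).

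Of 32 genes of antigen presentation and the interferon response tested, 4 were called in the interaction: Bst2 and Tap2, which grew, and RT1-Da and B2m, which reversed. Bst2, tetherin, an interferon-induced membrane protein that holds back budding viruses, had signals of 214, 262 and 335 against 160.0, 214 and 290.1 at 2 weeks and 166, 283 and 364 against 411, 438 and 548 at 8 weeks. The groups overlapped at 2 weeks and were separate at 8 weeks (diet difference -0.29 then 0.74, interaction 1.03 ± 0.20, adjusted p = 0.0165). Tap2, a chain of the transporter that carries peptides to MHC class I, had signals of 44.5, 64.8 and 71.3 against 39.8, 56.0 and 65.7 at 2 weeks and 45.5, 51.0 and 59.4 against 65.2, 91.5 and 122 at 8 weeks (interaction 0.87 ± 0.19, adjusted p = 0.033). The call of Tap2 held in 11 of the 24 omissions of 1 array.

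B2m, the light chain of MHC class I, was lower on the salt and fat diet at 2 weeks (-0.26 ± 0.07, adjusted p = 0.0144) and had a diet difference of 0.16 ± 0.07 at 8 weeks (adjusted p = 0.146). Its signals of 3728, 4056 and 4268 against 2948, 3243 and 3982 at 2 weeks and 3392, 3668 and 4262 against 3932, 4218 and 4544 at 8 weeks overlapped at both times. The interaction of B2m, 0.42 ± 0.10, adjusted p = 0.0429, was called in 8 of the 24 omissions, and a further probe set had 0.19 (adjusted p = 0.382).

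The 2 MHC class II alpha chains among the members were classed as reversing, and RT1-Da was called at both times. RT1-Da had signals of 1167, 1279 and 1405 against 769, 1063 and 1199 at 2 weeks and 1009, 1135 and 1242 against 1231, 1738 and 1944 at 8 weeks. Its diet difference went from -0.35 ± 0.11 (adjusted p = 0.0472) to 0.54 ± 0.11 (adjusted p = 0.00206), with some overlap of the groups at both times (interaction 0.89 ± 0.16, adjusted p = 0.00871). RT1-Ba had medians of 179 and 129.6 at 2 weeks and 158 and 186 at 8 weeks, with separate groups at 2 weeks and overlapping groups at 8 weeks (interaction 0.71 ± 0.14, adjusted p = 0.017 and for a further probe set 0.45, adjusted p = 0.246). Its diet difference was called at 2 weeks (-0.50, limma adjusted p = 0.00238) and not at 8 weeks (0.22, adjusted p = 0.183). The further probe set had -0.12 and 0.34, neither called (adjusted p = 0.588 and 0.0611).

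In the whole list 15 upward and 1 downward differences had an unadjusted p under 0.05. The interaction was above 0 for 26 of 32 (median 0.27). The immunoproteasome subunits Psmb8 and Psmb10 had 0.66 and 0.67 (adjusted p = 0.101 and 0.145). The interferon-response genes Mx1, Ifit1 and Oas1a had diet differences of -0.28 at 2 weeks and -0.04 at 8 weeks, -0.39 at 2 weeks and -0.20 at 8 weeks, and -0.33 at 2 weeks and -0.07 at 8 weeks, and none of the 3 passed. RT1-CE16, a class I gene, had the opposite sign at -0.45 without passing (adjusted p = 0.148).

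The 250 bases before the start of B2m, Tap2 and Bst2 are shown because these 3 of the 4 called genes of the list hold a match to the interferon element, and that of Lcn2 because it is the injury member with an NF-kB element. RT1-Da, the other called gene of the list, has a promoter in the table and held neither element. They are RefSeq reference sequence of GRCr8, not of SHR-SP, and 32 members had a promoter in that table. Capitals mark matches, on either strand, to the NF-kB element or to the interferon element, each of 10 letters with an open pair in the middle, the latter chosen after the values were seen.
B2m, chr3:129549080-129549329, plus strand: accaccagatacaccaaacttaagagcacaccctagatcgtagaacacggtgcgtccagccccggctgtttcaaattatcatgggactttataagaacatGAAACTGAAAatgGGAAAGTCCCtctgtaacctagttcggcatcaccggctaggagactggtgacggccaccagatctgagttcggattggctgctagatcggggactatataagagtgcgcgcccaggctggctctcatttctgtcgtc
Tap2, chr20:4652297-4652546, minus strand: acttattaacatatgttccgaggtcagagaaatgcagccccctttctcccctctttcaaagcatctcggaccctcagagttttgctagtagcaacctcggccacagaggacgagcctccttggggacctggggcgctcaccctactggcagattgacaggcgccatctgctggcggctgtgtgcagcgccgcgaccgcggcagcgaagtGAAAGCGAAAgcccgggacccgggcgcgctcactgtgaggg
Bst2, chr16:18254968-18255217, minus strand: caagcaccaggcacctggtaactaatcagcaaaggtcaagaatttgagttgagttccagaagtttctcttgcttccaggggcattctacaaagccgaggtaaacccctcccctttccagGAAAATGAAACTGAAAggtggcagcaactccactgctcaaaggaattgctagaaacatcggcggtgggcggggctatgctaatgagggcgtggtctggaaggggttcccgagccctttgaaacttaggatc
Lcn2, chr3:36081781-36082030, minus strand: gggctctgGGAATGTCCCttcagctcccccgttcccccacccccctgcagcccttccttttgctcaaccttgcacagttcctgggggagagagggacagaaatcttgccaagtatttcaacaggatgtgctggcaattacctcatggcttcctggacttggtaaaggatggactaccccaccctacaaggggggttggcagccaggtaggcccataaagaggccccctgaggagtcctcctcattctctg

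B2m held both elements, the interferon one at 150 to 141 and the NF-kB one at 137 to 128 bases before the start. Tap2 had its interferon match at 41 to 32 bases before the start, Bst2 had a pair that overlap between 131 and 116, and Lcn2 had its NF-kB match at 242 to 233. The NF-kB element occurred in 1.08% of 33469 RefSeq promoters of this length and in 2 of 32 members, and the interferon element in 3.41% and in 3 of 32. Of the other motifs searched on both strands, the AP-1 element TGANTCA (6.34% of promoters) matched 2 members, Gpnmb and Cd68, the core of the tonicity element TGGAAANNN (19.5%) matched 6, and the sterol element TCACNCCAC (0.974%) matched 0. A match describes the letters in this window and says nothing on binding.

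The remaining growing members were of mixed function. Cp, ceruloplasmin, a copper-carrying ferroxidase, had signals of 56.8, 69.7 and 99.5 against 79.5, 88.2 and 99.7 at 2 weeks and 60.8, 81.8 and 96.3 against 153, 206 and 318 at 8 weeks. Its groups overlapped first and were separate later (interaction 1.01 ± 0.20, adjusted p = 0.017), but 2 further probe sets had 0.28 and 0.07 and did not pass. The probe set with 0.28 was already called higher at 2 weeks (0.57, limma adjusted p = 0.00895) and again at 8 weeks (0.85, adjusted p = 0.000165). The one with 0.07 was called at neither time. Tmem176a, a membrane protein, had medians of 229.5 and 250.4 at 2 weeks and 221 and 362 at 8 weeks (interaction 0.60 ± 0.12, adjusted p = 0.017). Nap1l1, a histone chaperone, had the smallest growing value, 0.39 ± 0.09, adjusted p = 0.0291, with separate groups at 8 weeks, and was called in 16 of the 24 omissions. Further probe sets of Nap1l1 had 0.18 and 0.29 (limma adjusted p = 0.664 and 0.806), and neither had a diet difference called at 8 weeks (adjusted p = 0.112 and 0.440).

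Among genes outside the 39, Hmox1, the stress-induced heme oxygenase, had medians of 59.1 and 53.9 at 2 weeks and 62.5 and 140.0 at 8 weeks. Its 8-week salt and fat animals ran from 80.7 to 472 and overlapped the normal diet, and the interaction of 1.29 ± 0.41 did not pass (adjusted p = 0.197).

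The reversing member with the smallest p was COX1, the mitochondrially encoded subunit of cytochrome c oxidase. At 2 weeks its signals were 4637, 4963 and 6312 (normal) and 1818, 2235 and 3040.2 (salt and fat), where every salt and fat animal lay below every normal-diet animal. At 8 weeks they were 3154, 4119.6 and 8425 and 5053, 6162 and 7457, with the salt and fat median above and 1 normal-diet animal highest of all. The diet difference went from -1.20 ± 0.16 (adjusted p = 2.16e-05) to 0.52 ± 0.16 (adjusted p = 0.0396), an interaction of 1.72 ± 0.23 (95% interval 1.26 to 2.18, adjusted p = 0.000306). COX2, the other mitochondrially encoded gene tested, had diet differences of -0.31 at 2 weeks and 0.03 at 8 weeks (interaction 0.34, adjusted p = 0.343). Of 71 nuclear genes of oxidative phosphorylation, 0 were called by limma and 5 had an unadjusted p under 0.05, all downward (median -0.06, or -0.14 with 9 downward when adjusted for the spike-in level). Over all probe sets tested 0.382% were called and 5.34% were downward at an unadjusted p under 0.05, so nothing is read from the counts of 0 and 5. The spike-in controls had the same pattern of lower then higher, and with their level as a covariate the COX1 interaction was 1.16 ± 0.26 (unadjusted p = 0.000129, adjusted p = 0.126).

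Ctsl, cathepsin L, a lysosomal protease, reversed on both of its probe sets. The stronger had signals of 2655, 2727 and 3060.0 against 2048, 2207 and 2384 at 2 weeks, with separate groups, and 2094, 2384 and 2695 against 2479, 2917 and 3220.3 at 8 weeks, with overlapping groups (interaction 0.60 ± 0.10, adjusted p = 0.00609). For the other the diet difference went from -0.39 to 0.37 (interaction 0.75 ± 0.15, adjusted p = 0.017). Adjusted for the spike-in level, these values were 0.40 ± 0.12 and 0.50 ± 0.19, and neither passed. Among 36 lysosomal genes tested Ctsl was the one called, and 9 upward and 1 downward differences had an unadjusted p under 0.05 (median 0.08). The lysosomal membrane protein Scarb2 had 0.86 (adjusted p = 0.188). Fgl2, a fibrinogen-like protein of macrophages and T cells, had signals of 76.4, 82.9 and 94.9 against 56.5, 60.4 and 81.7 at 2 weeks and 65.0, 80.7 and 88.2 against 76.3, 104 and 114 at 8 weeks. It was called lower and then higher, with overlap at both times (interaction 0.68 ± 0.15, adjusted p = 0.0281), and kept its call in 16 of the 24 omissions.

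Further members were classed as reversing from lower to higher. Rgs5, which damps G protein signals in pericytes, had medians of 55.6 and 39.0 at 2 weeks and 51.6 and 75.3 at 8 weeks (interaction 1.09 ± 0.23, adjusted p = 0.0251). Its groups overlapped at 2 weeks and were separate at 8 weeks, and its call was lost without normal-diet array 1 at 2 weeks, normal-diet array 4 at 8 weeks or salt and fat array 3 or 5 at 8 weeks (adjusted p up to 0.0645). It was the one called of 17 smooth muscle and pericyte genes, of which 6 upward and 1 downward had an unadjusted p under 0.05 (median 0.31). At 2 weeks the diet difference of Rgs5 was -0.48 ± 0.16 (limma adjusted p = 0.0688). The list then had the opposite sign, with a median of 0.20, 5 genes called higher and 1 called lower. Cpe, carboxypeptidase E of prohormone processing, had medians of 135 and 103 at 2 weeks and 122 and 172 at 8 weeks and separate groups at 8 weeks (interaction 0.87 ± 0.16, adjusted p = 0.00968). Cd276, an immune checkpoint protein of the B7 family, went from separate and lower (-0.65 ± 0.16) to overlapping (0.36 ± 0.16, interaction 1.01 ± 0.23, adjusted p = 0.0384), and its call held in 10 of the 24 omissions.

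The small GTPase Rhoa, a regulator of the actin skeleton, had diet differences of -0.35 and 0.45 (interaction 0.80 ± 0.18, adjusted p = 0.0483, 0.57 with adjusted p = 0.135 on a further probe set). Rab5c, a GTPase of early endosomes, had -0.21 and 0.33 (interaction 0.54 ± 0.12, adjusted p = 0.0483), and Nedd4, a ubiquitin ligase, -0.30 and 0.23 (interaction 0.53 ± 0.12, adjusted p = 0.0334, 0.02 on a further probe set). These were among the calls often lost when 1 array was omitted: Rhoa and Rab5c were called in 5 and Nedd4 in 12 of the 24 omissions. Over the omissions the interaction ran from 0.73 to 0.91 for Rhoa, 0.48 to 0.60 for Rab5c and 0.48 to 0.59 for Nedd4.

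**Figure D4:**
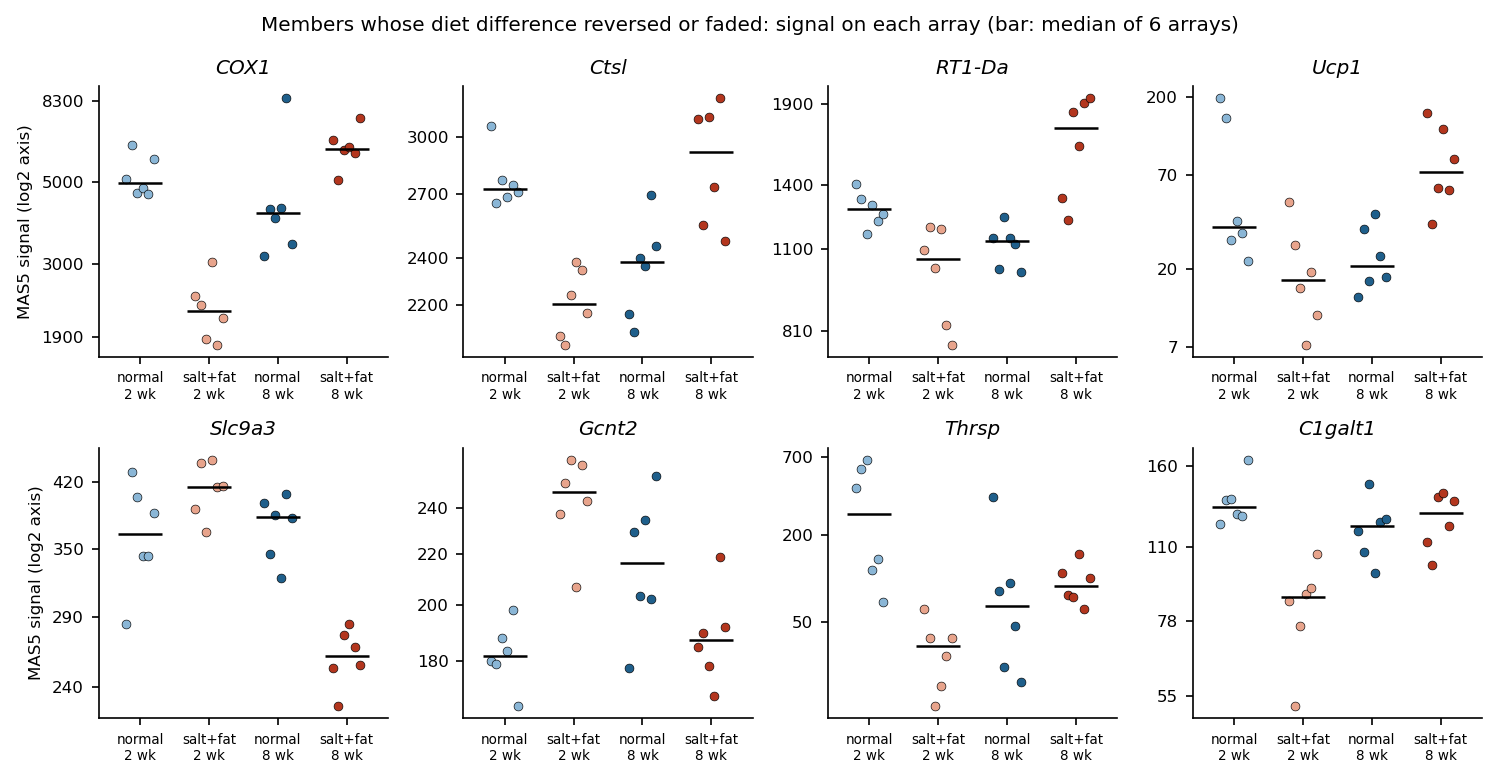
MAS5 signal (log2 axis) of 6 reversing members (COX1, Ctsl, RT1-Da, Ucp1, Slc9a3, Gcnt2) and 2 fading members (Thrsp, C1galt1) on each array, in 4 groups of 6, with a bar at the group median. COX1 is lowest in the salt and fat animals at 2 weeks, and Slc9a3 is lowest in the salt and fat animals at 8 weeks.

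All 4 members with a negative interaction were classed as reversing from higher to lower, but 0 of them had a diet difference called at both times. Slc9a3, NHE3, the sodium-hydrogen exchanger of the proximal tubule, had signals of 285, 364 and 431 against 367, 414 and 446 at 2 weeks and 323, 382 and 406 against 228, 261 and 285 at 8 weeks. The groups overlapped at 2 weeks, and at 8 weeks every salt and fat animal was below every normal-diet animal. The diet difference went from 0.18 ± 0.08 (adjusted p = 0.192) to -0.50 ± 0.08 (adjusted p = 0.000248), an interaction of -0.68 ± 0.12 (95% interval -0.93 to -0.44, adjusted p = 0.00871). It was the one called of 51 proximal tubule genes, for which the median diet difference was -0.22 at both times and the median interaction 0.08 (-0.053 when adjusted for the spike-in level). Slc5a2, the glucose transporter SGLT2, was lower at both times (-0.43 and -0.71, interaction -0.28 ± 0.18, adjusted p = 0.582). The proximal tubule regulator Hnf4a was called lower at 2 weeks (-0.74 ± 0.13) and not at 8 weeks (-0.22 ± 0.13), and the difference between the times did not pass (0.52 ± 0.18, adjusted p = 0.239). A further probe set of Hnf4a was called lower at both times (-0.57 and -0.38, limma adjusted p = 0.00282 and 0.0438). Its interaction was 0.19 (adjusted p = 0.714).

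Gcnt2, an enzyme that branches carbohydrate chains, had signals of 165, 182 and 198 against 207, 247 and 263 at 2 weeks and 178, 216 and 255 against 168, 187 and 219 at 8 weeks. Tmtc1, a protein mannosyltransferase, had 129, 139 and 153 against 155, 186 and 213 and then 149.9, 168 and 190.1 against 124, 149.8 and 172. Both were separate and higher on the salt and fat diet at 2 weeks and overlapping at 8 weeks (interactions -0.59 ± 0.12, adjusted p = 0.0165, and -0.59 ± 0.12, adjusted p = 0.0219). The 8-week diet differences, -0.19 for Gcnt2 and -0.20 for Tmtc1, were not called (limma adjusted p = 0.149 for each). Nae1, a subunit of the enzyme that activates NEDD8, had medians of 68.9 and 84.8 at 2 weeks and 94.9 and 65.5 at 8 weeks (diet difference 0.34 then -0.46, interaction -0.80 ± 0.16, adjusted p = 0.017), with overlap at both times. Its diet difference was called at 8 weeks (limma adjusted p = 0.0108) and not at 2 weeks (adjusted p = 0.0626).

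Fading responses were few and were all lower at 2 weeks. C1galt1, the enzyme that makes core O-glycans, had signals of 122, 132 and 165 against 52.5, 87.0 and 106 at 2 weeks and 97.3, 121 and 147 against 101, 129 and 141 at 8 weeks. Sptbn1, a spectrin of the membrane skeleton, had 76.4, 82.3 and 99.2 against 34.6, 54.1 and 57.2 and then 52.4, 71.0 and 81.5 against 50.6, 84.8 and 92.5. Both were separate and lower at 2 weeks and overlapping at 8 weeks (interactions 0.75 ± 0.17, adjusted p = 0.0491, and 0.86 ± 0.19, adjusted p = 0.0384). Other probe sets did not pass, with 0.15 for C1galt1 and 0.28 and 0.03 for Sptbn1, and the calls held in 5 and 10 of the 24 omissions.

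Thrsp, Spot 14, a regulator of fat synthesis in lipogenic tissue, was the third fading member and had the largest interaction of the 39 members. Its signals were 68.9, 281 and 668 against 13, 33.7 and 60.9 at 2 weeks and 19.1, 64.0 and 369.9 against 61.5, 89.0 and 148 at 8 weeks. The groups were separate at 2 weeks and overlapped at 8 weeks (interaction 3.18 ± 0.73, 95% interval 1.68 to 4.67, adjusted p = 0.0483). Its 2 further probe sets had 2.86 and 3.06 (adjusted p = 0.0529 and 0.118), and the call held in 6 of the 24 omissions. Adjusting for the fat index gave a Thrsp value of 0.86 ± 0.37.

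Ucp1 and Cidea, genes of brown adipocytes, were both among the members with a positive interaction. Of the 7 brown adipocyte genes tested, 5 had an interaction above 0 (median 0.40). An unadjusted p under 0.05 was reached by 4 upward and 1 downward. At 2 weeks 2 genes of this list were called higher on the salt and fat diet and 1 lower, so the list did not move as a whole. Ucp1, the uncoupling protein, had signals of 22.2, 35.0 and 198 against 7.20, 17.2 and 48.8 at 2 weeks and 13.7, 20.8 and 41.4 against 36.3, 72.8 and 162 at 8 weeks, with overlap at both times (diet difference -1.29 ± 0.42 then 1.5 ± 0.42, interaction 2.79 ± 0.59, adjusted p = 0.0247). Cidea, a lipid droplet protein, had signals of 52.2, 94.9 and 237 against 65.9, 92.8 and 104 and then 36.3, 58.6 and 78.0 against 125, 144 and 174. Its groups were separate at 8 weeks alone (interaction 1.62 ± 0.33, adjusted p = 0.0219). Adjusted for the fat index, the interactions were 2.16 ± 0.69 for Ucp1 and 0.90 ± 0.32 for Cidea, and neither passed. The call of Ucp1 was lost without normal-diet array 2 or salt and fat array 3 at 2 weeks, or salt and fat array 1 at 8 weeks (adjusted p up to 0.0527).

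Among 15 adipocyte genes tested these 2 were called, and 10 had an unadjusted p under 0.05, all upward. The median diet difference was -0.82 at 2 weeks and 0.23 at 8 weeks, and the interaction was above 0 for 14 of 15 (median 1.19, or 0.06 with the fat index as a covariate, which is made of 3 of these genes). The summed signal of the list was 7055 to 12347 on the normal and 5463 to 7292 on the salt and fat diet at 2 weeks, and 5991 to 11437 and 6579 to 7143 at 8 weeks. Lep, Plin1, Pparg, Cebpa and Acvr1c lay below the filter. The wide spread was on the normal diet, where Fabp4, a fatty acid carrier of adipocytes, ran from 50.2 to 1236 at 2 weeks and from 1.00 to 953 at 8 weeks (interaction 3.24 ± 1.02, adjusted p = 0.188). Cfd, adipsin, had 2.33 ± 0.68, adjusted p = 0.152, and Car3, a carbonic anhydrase of fat and muscle, 3.26 ± 0.92, adjusted p = 0.145. Scd, a fatty acid desaturase, was lower at both times (-3.93 ± 0.60 and -2.12 ± 0.60, interaction 1.81 ± 0.85, adjusted p = 0.413).

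When the fat index was added as a covariate, 13 probe sets were called, of which 8 were among the 39: COX1, Lcn2, Ctsl, Clu, Slc9a3, Cpe, Spp1 and Cd276. With the GAPDH ratio 4 were called, all among the 39. With the spike-in level limma called 0 at an adjusted p under 0.05 (smallest adjusted p = 0.126) and 819 at an unadjusted p under 0.05. The interaction estimates of the 39 were then between 0.66 and 1.38 times those without it, with standard errors 1.36 times as large in the median. Under each of these covariates all 39 kept their direction and an unadjusted p under 0.05. The diet differences of the 15 members classed as reversing from lower to higher kept their signs at both times. With the fat index not all of them met the rule for a reversal, and Rab5c had -0.10 ± 0.11 and Ucp1 -0.73 ± 0.53 at 2 weeks.

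For contrast, 215 probe sets were called at both times in 1 direction with an interaction at an unadjusted p over 0.05, of which 123 were higher and 92 lower. Psca, a surface protein of epithelia, was the largest, with signals of 4.50, 6.80 and 26.2 against 53.2, 166 and 213 at 2 weeks and 5.30, 8.75 and 17.1 against 89.6, 114 and 152 at 8 weeks, separate at both times. Its interaction had a 95% interval of -1.19 to 0.35. Akr1b1, aldose reductase, which makes the osmolyte sorbitol, had diet differences of 1.86 and 1.46 (interval -1.03 to 0.24), and S100a6, a calcium-binding protein, 1.44 and 1.87 (interval -0.15 to 1.01). The other genes of largest held response were Slco4a1, an organic anion carrier (1.49 and 1.19), Marveld1 (1.17 and 1.41) and Slc14a2, a urea transporter (1.63 and 1.37). A further probe set of Marveld1 had diet differences of -0.37 and -0.06, neither called. Of 2 further probe sets of Slc14a2, 1 was called higher at both times (0.99 and 0.80) and the other was not called (-0.16 and -0.32).

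Aqp2, through which the collecting duct takes up water under vasopressin, was higher at both times, with signals of 447, 583 and 841 against 1171, 1318 and 1479 at 2 weeks and 617, 936 and 1062 against 1065, 1517 and 1782 at 8 weeks. Its diet difference was 1.16 ± 0.14 and then 0.73 ± 0.14, and the groups were separate at both times. The interaction of -0.43 ± 0.19 (95% interval -0.82 to -0.03) did not pass (adjusted p = 0.388). Over 18 collecting duct genes 0 were called by limma, 5 had an unadjusted p under 0.05, all downward, and 14 lay below 0 (median -0.15). Aqp4 and Aqp3, the channels of the basolateral side, had -0.82 and -0.41 (adjusted p = 0.145 and 0.15). The 11 genes of osmolyte and urea transport had 0 calls, 3 downward at an unadjusted p under 0.05 and a median of -0.16, with median diet differences of 0.54 at 2 weeks and 0.35 at 8 weeks. With adjustment for the fat index the median of this list was -0.02 with 0 downward at an unadjusted p under 0.05 by limma, and 2 collecting duct genes were downward. Igfbp3, an insulin-like growth factor carrier, was lower at both times (-0.42 and -1.01, interaction -0.59 ± 0.17, adjusted p = 0.148), and Umod, uromodulin of the thick ascending limb, had an interval of -0.09 to 0.36. Alb, albumin, had -1.66 and -0.19 (interaction 1.48 ± 0.59, adjusted p = 0.314).

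**Figure D5:**
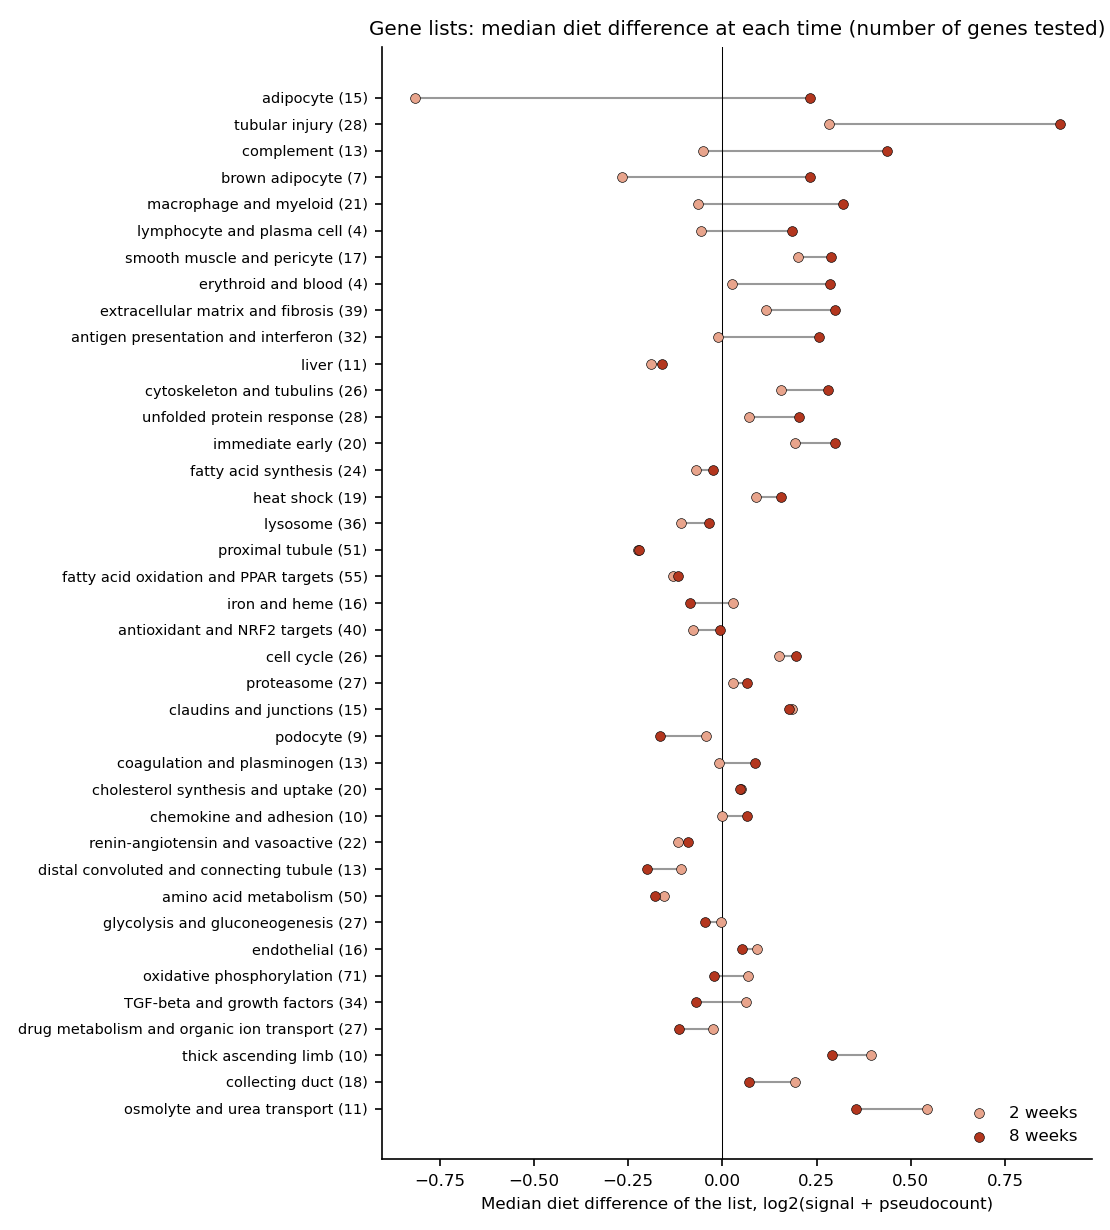
Median diet difference of each gene list at 2 weeks (light) and 8 weeks (dark), log2 of signal plus pseudocount on the horizontal axis, with lists ordered by their median interaction and the number of genes tested in brackets (lists with at least 4). The adipocyte list goes from -0.82 to 0.23 and the tubular injury list from 0.28 to 0.89, while the proximal tubule list stays at -0.22.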

How the data were processed

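RNA of 24 whole kidneys was hybridised to Affymetrix rat arrays, 1 array per animal. The authors deposited 1 linear signal intensity per probe set, computed with MAS5 per the submitters' processing notes, and its version and scaling target are not given in the sources used here. Such a signal is scaled per array and carries no counting error, and precision is limited by how many arrays there are. Of 15923 probe sets, 57 controls were set aside, and 10208 were tested that lay above their array's 40th percentile on at least 6 arrays. A probe set was named where the platform annotation gave 1 symbol (12783 had 1, 312 several, 2771 none).

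Values were taken as log2(signal + 7.21), where 7.21 is 0.1 of the median signal, so that fold changes of dim genes are understated. Limma 3.58.1 in R 4.3.3 (lmFit and eBayes with a trend) was fitted to 4 group means over all arrays, with Benjamini-Hochberg adjustment over all 10208 probe sets. Called means an adjusted p under 0.05. In lists, a gene stands by its brightest probe set. Single array measures were compared by exact two-sided permutation tests.

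The members and the 46 gene lists were chosen with earlier results of these data known. Named were up to 6 calls of largest interaction per class and direction, 6 held genes, up to 4 called genes per list and a list of known injury, matrix, tubule and fat genes, and the other calls and list genes were named after their values were seen. Simulated interactions of 0.5, 1, -1 and 2 (log2) were recovered at 44%, 80%, 86% and 98%, with 3 false calls among those left unchanged of 10208 probe sets. The simulated noise was independent between probe sets. Differences between whole arrays, such as those of the spike-in level, were not part of it, so these shares do not cover them. Alternatives covered pseudocount, normalisation, filter, eBayes settings, array weights, a replicate block, covariates and omitted arrays.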

Additional observations from a re-analysis of the deposited data

Results flagged for a closer look

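The diet difference itself differed between 2 and 8 weeks, by limma's interaction test, for 39 probe sets, with values in log2. The growing members had interactions of 1.19 for Clu, 1.57 for Col1a1, 1.73 for Lcn2, 1.05 for Cd68, 2.48 for Havcr1, 1.25 for Spp1, 0.62 for C1qa, 1.03 for Bst2, 1.52 for the unnamed probe set, 0.60 for Tmem176a, 1.01 for Cp, 1.62 for Cidea, 1.15 for Gpnmb, 0.99 for Vim, 0.91 for Col3a1, 0.39 for Nap1l1 and 0.87 for Tap2. The fading members had 0.86 for Sptbn1, 3.18 for Thrsp and 0.75 for C1galt1. The members classed as reversing from lower to higher had 1.72 for COX1, 0.60 for Ctsl (brighter probe set), 0.89 for RT1-Da, 0.87 for Cpe, 0.71 for RT1-Ba, 0.75 for Ctsl (dimmer probe set), 0.52 for Lyz2, 2.79 for Ucp1, 1.09 for Rgs5, 0.68 for Fgl2, 0.53 for Nedd4, 1.01 for Cd276, 0.42 for B2m, 0.80 for Rhoa and 0.54 for Rab5c. Those classed as reversing from higher to lower had -0.68 for Slc9a3, -0.59 for Gcnt2, -0.80 for Nae1 and -0.59 for Tmtc1.

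In 9 of 228 groups of 6 animals tested (3.95%) 1 animal stood apart by Dixon's criterion, where chance gives about 1 in 20. The number given is the gap to the next animal as a share of the group's range. On the normal diet at 2 weeks these were Ctsl (brighter probe set, animal 1 highest at 3060.0, 0.695), Ctsl (dimmer probe set, animal 6 lowest at 618, 0.838), Havcr1 (animal 4 highest at 94.7, 0.648), Sptbn1 (animal 3 highest at 99.2, 0.653) and Umod (animal 1 lowest at 5168, 0.699). On the salt and fat diet at 2 weeks animal 2 was lowest for Psca (53.2, 0.708) and Akr1b1 (221, 0.675). At 8 weeks COX1 was highest in normal-diet animal 5 (8425, 0.696) and Alb in salt and fat animal 2 (162, 0.808).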

How the results depend on the processing

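All 39 members kept their direction under every alternative in which they were tested, while the number called depended on the setting. The total was 38 and 47 with a pseudocount 4 times smaller and larger, 42 after quantile normalisation, 52 after median centring, 31 without a filter, 30 with a stricter one (31 of the 39 tested), 31 without the eBayes trend and 40 with a robust trend. Array weights gave 80 (62 higher, 18 lower, 33 growing, 15 fading and 32 reversing) and 632 time differences on the salt and fat diet. The fading class, with 3 members, became 10 with median centring, 0 without a filter, 1 without the trend, 8 without normal-diet arrays 1 and 2 at 8 weeks, and 9 where a reversal needed both adjusted p-values (5 reversing). Without those 2 arrays 8 calls were lower, and the diet calls at 8 weeks numbered 541 in place of 933. With the fat index 13 were called (11 higher, 2 lower, 4 growing, 0 fading and 9 reversing) and 232 diet differences at 2 weeks in place of 892. With the GAPDH ratio 4 were called (4 higher, 0 lower, 1 growing, 0 fading and 3 reversing) and 314 diet differences at 2 weeks. With the spike-in level limma called 0 in the interaction and in each of its directions and classes (819 at an unadjusted p under 0.05), with 482 diet differences at 2 weeks and 497 at 8 weeks. The 4 time differences on the normal diet became 2 with median centring, 9 without normal-diet arrays 1 and 2 at 8 weeks, and 0 in limma without the trend and with the fat index, GAPDH ratio or spike-in level (878, 961, 924 and 522 at an unadjusted p under 0.05). The cause was not tested for any of these. Omitting 1 array at a time gave 22 to 50 calls (19 to 45 higher, 3 to 10 lower, 12 to 28 growing, 0 to 8 fading and 8 to 24 reversing). Diet differences then numbered 598 to 986 at 2 weeks and 543 to 1120 at 8 weeks, and time differences 0 to 10 on the normal and 220 to 507 on the salt and fat diet. The 22, all among the 39, came without salt and fat array 3 at 8 weeks. Of the 39, 21 were called in all 24 omissions. Interactions changed sign for Umod (-0.16 after quantile normalisation, -0.082 with the spike-in level), Marveld1 (-0.051 without normal-diet arrays 1 and 2 at 8 weeks, -0.36 with the spike-in level), Slc14a2 (0.10 with the GAPDH ratio), and Aqp2, Scd and Fabp4 (0.055, -0.88 and -0.22 with the fat index), none of which was called. With a replicate block 41 were called, 35 of them among the 39, and 7 faded. The labels do not tie equal replicate numbers to 1 animal, and the deviations of 36 same-numbered pairs correlated at -0.15 to 0.16 (median 0.02), so the numbers were not taken to pair the arrays.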

Other observations

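Of 34 growth factor genes tested, 14 had an interaction above 0, against 4808 of all 10208 probe sets. With the spike-in level as a covariate 18 were above 0 (median 0.053), with 4 upward and 4 downward at an unadjusted p under 0.05. Without it 0 were called by limma, and 6 downward and 1 upward reached an unadjusted p under 0.05. Areg, amphiregulin, a ligand of the epidermal growth factor receptor, had -0.70 (adjusted p = 0.0527), and Vegfa, which maintains capillaries, -0.29 (adjusted p = 0.186). The upward one was Igfbp6, a binding protein of insulin-like growth factors, at 0.57 (adjusted p = 0.421).

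Genes of iron and heme handling had interactions of both signs. Of 16 tested 0 were called by limma, and 2 upward and 4 downward reached an unadjusted p under 0.05. Slc40a1, ferroportin, the iron exporter, had 0.42 (adjusted p = 0.233), and Tfrc, the transferrin receptor, -0.34 (adjusted p = 0.42).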
